A study of Mus musculus with 36 samples.

Results

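The lysosome genes described here are 34 mouse genes that encode enzymes, membrane proteins and proton pump subunits of the lysosome, and 1 transcription factor that controls many of them. They were chosen by name. Each array probe was tied to a gene through its RefSeq accession, and a gene with more than 1 probe was represented by the probe of highest mean signal. All 34 were on the array, which carried 36799 gene names, and all 34 passed the filter on dim probes that left 23256 genes for testing. By role they comprised 11 proteases and their partner progranulin, 8 glycosidases, 6 proteins of lipid breakdown and cholesterol export, 4 membrane proteins, 4 proton pump subunits and Tfeb.

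The study measured RNA from the lungs of female C57BL/6 mice, aged 5 to 7 weeks, after a single intratracheal instillation of titanium dioxide nanoparticles named Tube TiO2 in the labels. Doses were 0, 18, 54 or 162 µg in 40 µl. At day 28 the groups held 3, 4, 4 and 4 mice in that order of dose, and at day 1 they held 4, 3, 3 and 4 mice. The 0 µg mice are called controls and received no particles. The labels name no genetic change in any group. RNA came from random sections of the frozen lung, so each value averages all cells of a section, and more cells of a type cannot be told apart from more RNA per cell. Lung RNA was labelled with Cy5 and hybridised beside a common reference RNA of 11 mouse cell lines labelled with Cy3. Every value by mouse below is therefore a log2 ratio of lung to that reference, a scale on which 0 is the level of the reference and a change of 1 is a 2-fold change. Ratios of different genes are not set against each other, because the reference holds a different amount of each.

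Lysosomes are acidic organelles in which proteases, glycosidases and lipases take apart material that the cell has engulfed or recycled. A proton pump, the vacuolar ATPase, keeps them acidic, and heavily glycosylated membrane proteins line them. In the lung, alveolar macrophages take up inhaled particles into phagosomes that fuse with lysosomes, and alveolar type II cells store surfactant in lamellar bodies, which are related to lysosomes. The transcription factor TFEB binds a short palindromic motif near the start of many lysosomal genes, with CACGTG at its core.

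That core was looked for in the members, whose choice by name did not use it. Since the motif is known from lysosomal genes, as stated above, its share among the members is a description and no independent result. Promoter windows of 250 bases before to 50 bases after the start were read from RefSeq (GRCm38.p6) for 29 of the 34 members. Asah1, Atp6v1b2, Ctsb, Ctsh and Npc1 had no window in the table used. The hexamer CACGTG was present in 11 of the 29 members (37.9%), against 2187 of all 27025 genes with such a window (8.09%). The octamer TCACGTGA, which contains the hexamer, was present in 6 members (20.7%), against 304 of all genes (1.12%). Both are palindromes, so each match lies on both strands. The stretches printed here, each on the gene's own strand with the hexamer in capitals, are shown because they hold the match in members whose values are given by mouse or that stand for their role: Lgmn and Ctsd among the proteases, Gla among the glycosidases, Lamp1 and Mcoln1 in the membrane, and Atp6v1a in the proton pump.
Lgmn, chr12:102439124-102439153, minus strand: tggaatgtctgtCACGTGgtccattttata
Ctsd, chr7:142387908-142387937, minus strand: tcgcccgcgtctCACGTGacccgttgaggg
Gla, chrX:134601182-134601244, minus strand: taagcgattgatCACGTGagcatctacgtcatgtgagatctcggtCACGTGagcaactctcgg
Lamp1, chr8:13159088-13159160, plus strand: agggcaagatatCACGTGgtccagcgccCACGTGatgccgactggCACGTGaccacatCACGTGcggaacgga
Mcoln1, chr8:3500436-3500491, plus strand: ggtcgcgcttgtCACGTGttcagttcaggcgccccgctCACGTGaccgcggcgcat
Atp6v1a, chr16:44139373-44139402, minus strand: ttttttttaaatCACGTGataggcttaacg
Lamp1 held 4 copies in its window, and Gla and Mcoln1 held 2 each. Ctsd held a further copy 245 bases before its start. Ctsl, Gaa, Glb1, Ctsa and Atp6v0d1 were the other members with a match. A gene was counted when any of its windows held the motif. Lgmn and Ctsa had 2 windows each, and in both genes the other window held no match. In the windows of Ctsk, Ctsc, Ctss, Ctsz, Grn, Hexa and Neu1 these letters were not found.

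Some libraries stood apart and are named before the results. On 12 of the 36 arrays the mean log2 Cy5 intensity of a list of skeletal muscle genes was 10.27 to 14.87, against 6.75 to 7.51 on the other 24 arrays. These arrays, called muscle arrays below, belonged to 11 of the 29 mice. At day 28 they came from 0 of 4 mice at 162 µg, 3 of 4 at 54 µg, 1 of 4 at 18 µg and 0 of 3 controls. At day 1 they came from 1 of 4 mice at 162 µg, 1 of 3 at 54 µg, 1 of 3 at 18 µg and 4 of 4 controls. The 162 µg against control comparison at day 28 was thus free of them, and the day 1 comparison was not. A mouse with 2 arrays is labelled day 1 in the titles and day 28 in the time field, and was kept as a 162 µg, day 28 mouse (its replicate 1). The labels speak of 5 mice a group for RNA, while 3 to 4 a group were analysed here, and the p-values measure the spread between these mice. All 34 members were above background on every array, and no spot of the arrays was saturated.

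Across the 8 groups of dose and day, most of the lysosome genes were highest at 162 µg on day 28. There, 23 of the 34 members (67.6%) had their highest group mean, against 17.4% of all genes tested. No member had its highest mean at 54 µg on day 28, where 3 of 4 mice had a muscle array. The 162 µg and control groups of day 28 were the only groups without a muscle array. This ranking of groups is therefore mixed with muscle transcripts, and their part in it was not tested. At 162 µg on day 1, 4 members were highest (Ctsb, Ctsc, Lgmn and Lamp2), which is 11.8% of members against 16.8% of all genes. The other 7 members, none of them a protease, were highest elsewhere: Gla in day 1 controls, Atp6ap1 in day 28 controls, Tfeb at 18 µg on day 1, Mcoln1 at 18 µg on day 28, and Glb1, Smpd1 and Atp6v0d1 at 54 µg on day 1.

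**Figure D1:**
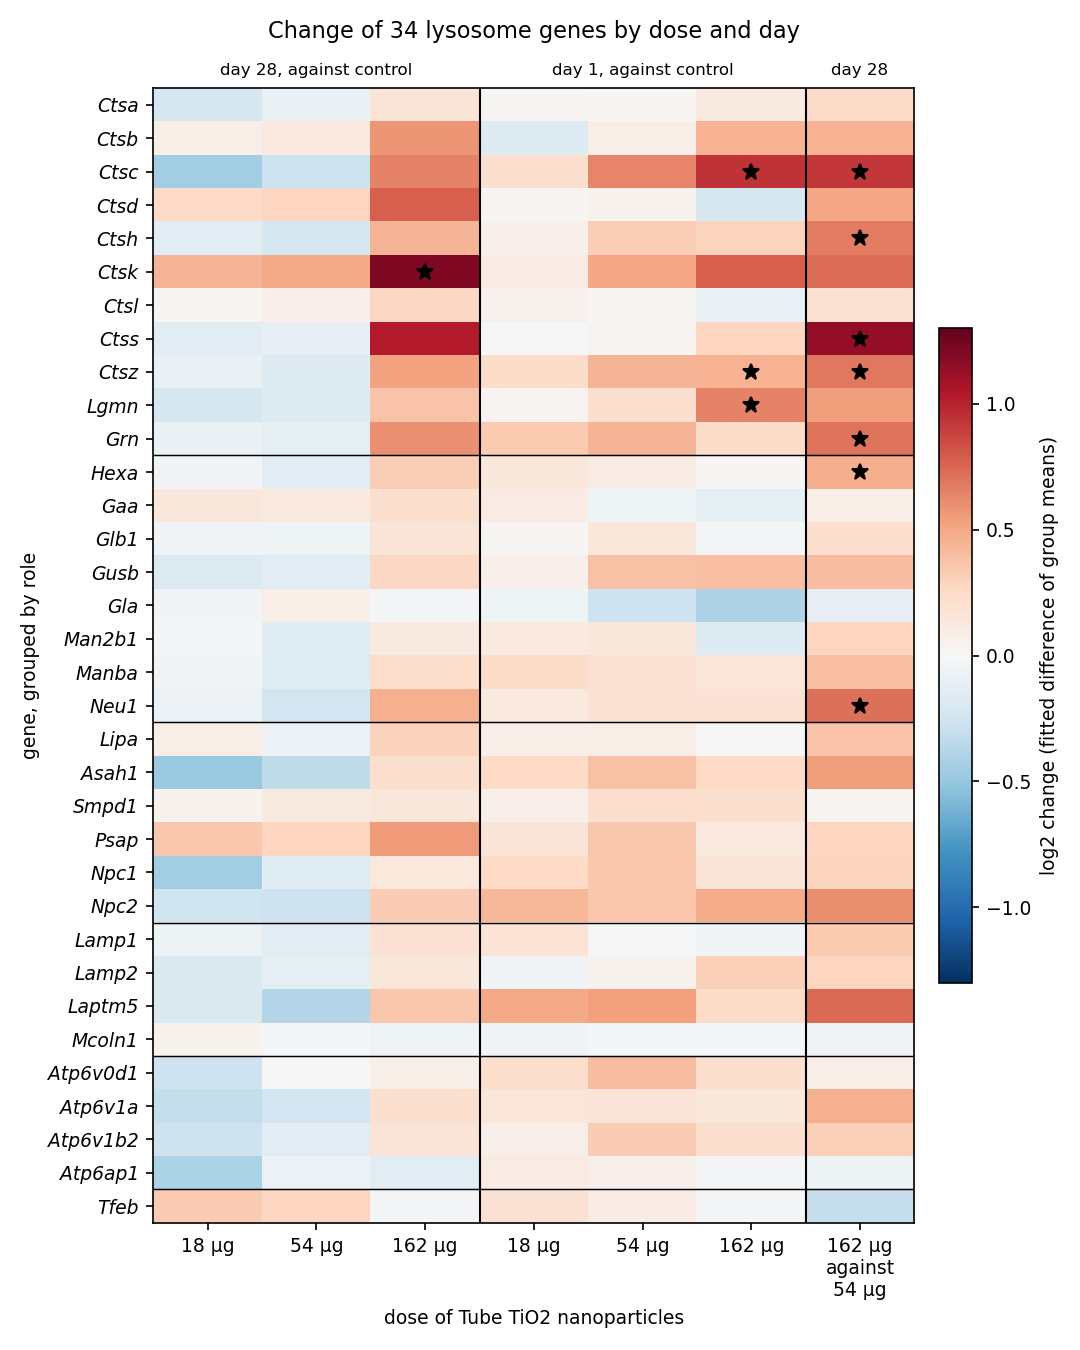
Heat map of the fitted log2 change of each of the 34 lysosome genes (rows, grouped by role) by dose of Tube TiO2 against control at day 28 and day 1, and for 162 µg against 54 µg at day 28 (last column). Red is higher and blue lower in the first-named group, and stars mark an adjusted p under 0.05. The 162 µg column of day 28 is red in 30 of 34 rows, with its only star at Ctsk.

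At 162 µg on day 28, 30 of 34 members had a positive change, and the median change was 0.25 (log2), against 0.00 over all genes. In the limma fit across all genes, with p-values adjusted over the 23256 genes by the Benjamini-Hochberg method and a threshold of 0.05, 1 member rose (Ctsk) and none fell. That is 2.94% of the members, while 0.623% of all genes rose. At an unadjusted p under 0.05, 13 members were higher and none lower, against 4.78% of all genes in either direction. For 17 members every 162 µg mouse was above every control mouse, and for none was every one below. Such a separation upward was found for 5.93% of all genes. In 25 members all 4 mice at 162 µg were above the mean of the controls, a count for which no share of all genes was computed.

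Ctsk encodes cathepsin K, a cysteine protease that cleaves collagen and elastin and is best known from osteoclasts. On day 28 it measured 3.62, 3.90, 3.66 and 3.47 in the 162 µg mice, against 2.37, 2.39 and 2.58 in the control mice. The lowest treated mouse lay far above the highest control, and the groups averaged 3.66 ± 0.18 (SD, n = 4) at 162 µg and 2.44 ± 0.11 (SD, n = 3) in controls. The change was 1.21 (SE 0.24, 95% interval 0.72 to 1.71), or 2.32-fold, with a limma adjusted p of 0.0104. Within each of the 4 slides that held both groups it was positive, at 0.89 to 1.27. Slides 1 and 5 held the same mice, replicate 1 of each group, and thus do not count as separate mice. Leaving out control replicate 1 (1.18), control replicate 2 (1.19) or 162 µg replicate 2 (1.14) ended the call. A second member joined Ctsk, as 2 calls in all, without 162 µg replicate 4, any 1 of the 4 mice at 54 µg or 18 µg replicate 3 of day 28, or without control replicate 2, 18 µg replicate 3 or 162 µg replicate 3 of day 1. It was Ctsz, Ctss, Ctsd or Ctsb. For these fits the share of all genes called is not given here.

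Ctss, the cysteine protease of antigen-presenting cells that trims the invariant chain of MHC class II, measured 2.81, 3.29, 2.48 and 2.63 in the 162 µg mice of day 28, against 1.54, 1.90 and 1.87 in the controls. The groups did not overlap, and the change of 1.03 (SE 0.26) had a limma adjusted p of 0.0718, outside the threshold. Ctsd, the main aspartic protease of lysosomes, measured 1.82, 2.18, 1.51 and 1.68 at 162 µg and 1.06, 1.04 and 0.94 in controls. Its change of 0.78 (SE 0.20) had an adjusted p of 0.0718 as well. The second probe of Ctsd gave 0.59. These 3 proteases had the largest changes of the members at this time, and in each of them the 4 treated mice lay above all 3 controls.

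The remaining proteases were placed on the same side of the controls without passing the test. Ctsz, a lysosomal carboxypeptidase, differed by 0.52 (adjusted p 0.0611), and Grn, which encodes progranulin, a precursor cut into granulins in the lysosome, by 0.59 (0.151). Ctsb, an abundant cysteine protease, differed by 0.58 (0.224), and Ctsc, the dipeptidyl peptidase that activates serine proteases of granulocytes, by 0.64 (0.659). Ctsh, an aminopeptidase that takes part in processing surfactant proteins in alveolar type II cells, differed by 0.44 and the asparaginyl endopeptidase Lgmn by 0.38. The smallest changes were those of Ctsl, a widely expressed cysteine protease, at 0.27, and of Ctsa at 0.17, whose second probe gave 0.03. Ctsa encodes a carboxypeptidase that also protects the sialidase Neu1. All 11 genes of the protease group had a positive change, with a median of 0.58, the highest of the 5 role groups that hold more than 1 gene.

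**Figure D2:**
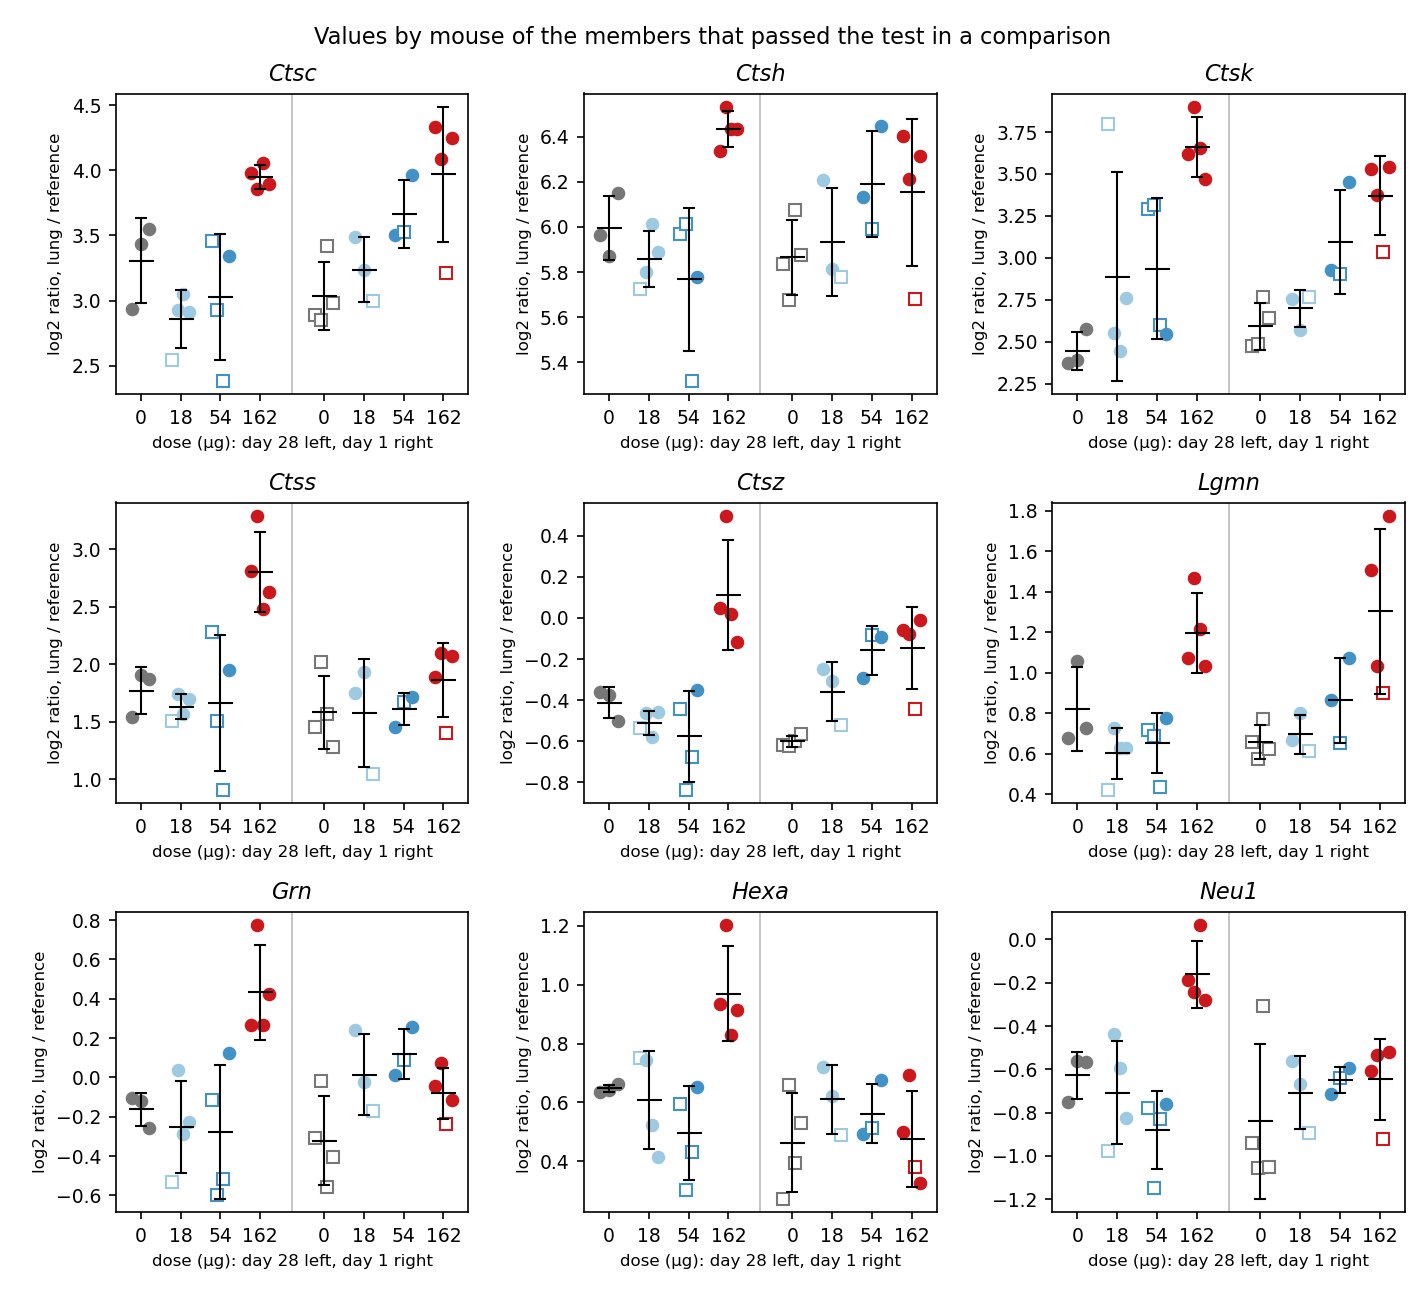
Log2 ratio of lung to reference RNA by mouse for the 9 lysosome genes that passed the test in any comparison, with dose in µg on the horizontal axis, day 28 left and day 1 right in each panel. Filled circles are mice without a muscle array, open squares mice with one, and bars show the mean ± SD of the group. On day 28 the 4 Ctsk values at 162 µg lie between 3.47 and 3.90 and the 3 control values between 2.37 and 2.58.

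On day 1, 3 members rose at 162 µg and none fell: Ctsc, Lgmn and Ctsz, all of them proteases. They are 8.82% of the members, while 1.5% of all genes rose. At an unadjusted p under 0.05, 8 members were higher and none lower, against 12.9% of all genes in either direction. The median change of the members was 0.18, against 0.01 over all genes, and 24 of 34 were positive. With the muscle and squamous epithelium lists as covariates the median was 0.0585, Lgmn kept its call at 0.52, Ctsk gained one at 0.99, and Ctsc (0.71, adjusted p 0.0539) and Ctsz (0.37, 0.107) lost theirs, while 1.96% of all genes rose. In 5 members all 162 µg mice were above all controls, a separation found for 4.21% of all genes.

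Ctsc measured 4.33, 4.08, 3.21 and 4.25 in the 162 µg mice of day 1, against 2.89, 2.85, 3.42 and 2.98 in the controls. The groups overlapped through 162 µg replicate 3, the only one of the 4 with a muscle array. The change was 0.93 (SE 0.23), or 1.91-fold, with a limma adjusted p of 0.0298. Lgmn, the asparaginyl endopeptidase whose promoter stretch is printed above, measured 1.51, 1.03, 0.90 and 1.77 at 162 µg and 0.66, 0.57, 0.77 and 0.62 in controls, with no overlap. It rose by 0.65 (SE 0.15), or 1.57-fold, with an adjusted p of 0.0196. Ctsz measured -0.06, -0.08, -0.44 and -0.01 at 162 µg and -0.62, -0.62, -0.60 and -0.56 in controls. The controls lay within a narrow band, and the change was 0.45 (SE 0.12), or 1.37-fold, with an adjusted p of 0.0494. Within slides the change was positive on 5 of 5 slides for Lgmn (0.13 to 1.15) and Ctsz (0.15 to 0.59). For Ctsc it was positive on 4 of 5 (-0.21 to 1.68). Here too slides 1 and 5 held the same mice, replicate 1 of each group.

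All 4 control mice of day 1 carried a muscle array, so the day 1 calls are given with their values when single mice were left out. Without control replicate 1, control replicate 4, 162 µg replicate 1 or 162 µg replicate 4, none of the 34 members passed the test. Without control replicate 2 the only call was Ctsb, and without 162 µg replicate 2 it was Lgmn. Without 162 µg replicate 3, the mouse with the muscle array, 6 members passed. These were Ctsc at 1.19, Lgmn at 0.78, Npc2 at 0.73, Ctsz at 0.55, Gusb at 0.46 and Ctsk at 0.89. The day 1 calls therefore depended on single mice in both groups. The share of all genes called without each of these mice is not given here.

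Ctsk was second in size on day 1, with 3.53, 3.37, 3.04 and 3.54 at 162 µg and 2.48, 2.48, 2.77 and 2.64 in controls. The groups did not overlap, and the change of 0.78 (SE 0.22) had a limma adjusted p of 0.0786. Ctsd was the protease with the most negative change on that day, with 0.85, 0.79, 1.31 and 0.82 at 162 µg against 1.07, 1.45, 0.79 and 1.31 in controls. The groups overlapped, and its change of -0.21 (SE 0.18) did not pass the test (adjusted p 0.683) and was 0.10 with arrays centred on their medians. For the difference between the day 28 and the day 1 change at 162 µg, none of the 34 members passed the limma test, and 0.0258% of all genes did. At an unadjusted p under 0.05, 3 members were higher on day 28, against 3.84% of all genes. A change past the threshold on 1 day only is therefore not shown to differ between the days.

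At day 28, 162 µg was also set against 54 µg, which separates the highest dose from the next one. Here 7 members rose and none fell: Ctss, Ctsc, Neu1, Grn, Ctsz, Ctsh and Hexa. They are 20.6% of the members, while 1.01% of all genes rose. At an unadjusted p under 0.05, 21 members were higher and none lower, against 12.5% of all genes in either direction. The median change was 0.38, against 0.02 over all genes. For 16 members every 162 µg mouse was above every 54 µg mouse, against 5.34% of all genes. The comparison shares its 162 µg mice with the one against controls. The number of calls was 2 without 162 µg replicate 2, 54 µg replicate 2 or 54 µg replicate 3. It was 4 without 162 µg replicate 3 or with the mouse of conflicting labels (162 µg replicate 1) counted as day 1. These counts stand without the share of all genes called in the same fits, which is not given here. In the same comparison 10 of 12 alveolar macrophage markers were positive (median change 0.47, 3 called), 14 of 15 monocyte and macrophage markers (0.52, 3 called), 8 of 9 alveolar type II markers (0.36, none called) and 6 of 6 alveolar type I markers (0.39, none called), and their part in the changes of the members was not tested.

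Ctss measured 2.81, 3.29, 2.48 and 2.63 at 162 µg, against 2.28, 1.51, 0.91 and 1.95 at 54 µg. It rose by 1.14, or 2.21-fold, with a limma adjusted p of 0.0135. Ctsc measured 3.98, 3.85, 4.06 and 3.90 at 162 µg and 3.46, 2.93, 2.38 and 3.34 at 54 µg, a rise of 0.92 with an adjusted p of 0.0462. In both genes every 162 µg mouse was above every 54 µg mouse, and 54 µg replicate 3 was the lowest.

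Ctsz had the lowest adjusted p of the members in this comparison, 0.00269, with a change of 0.69. It measured 0.05, 0.49, 0.02 and -0.12 at 162 µg, against -0.44, -0.83, -0.67 and -0.35 at 54 µg. Grn measured 0.26, 0.77, 0.26 and 0.43 at 162 µg, against -0.11, -0.60, -0.52 and 0.12 at 54 µg, and its change was 0.71 (adjusted p 0.0174). In each of them all 4 mice at 162 µg were above all 4 at 54 µg. Ctsh measured 6.34, 6.53, 6.44 and 6.43 at 162 µg and 5.97, 6.01, 5.32 and 5.78 at 54 µg, and rose by 0.66 (adjusted p 0.0282).

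Since 3 of the 4 mice at 54 µg carried muscle arrays and none at 162 µg did, the values without muscle arrays stand beside these calls. Only 1 mouse remained at 54 µg, so the test takes it to vary as mice of the other groups do. The changes were then 0.86 for Ctss, 0.61 for Ctsc, 0.46 for Ctsz, 0.31 for Grn, 0.66 for Ctsh, 0.60 for Neu1 and 0.32 for Hexa, and none of these 7 passed the test. The single member that passed was Ctsk, at 1.12 with an adjusted p of 0.0205. With all arrays its change was 0.72, and the 54 µg mice measured 3.29, 3.31, 2.60 and 2.54, where the first 3 carry the muscle arrays. In that fit 0.236% of all genes rose. With the muscle and squamous epithelium lists as covariates none of the 34 members passed, while 0.206% of all genes rose, and the changes of Ctsc and Ctsz were 0.52 and 0.56. Fitted on the compared groups alone, none of the 34 passed either.

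Among the glycosidases, which remove sugars from glycoproteins and glycolipids, none of 8 passed the test against controls on either day. On day 28, 7 of the 8 were positive at 162 µg with a median change of 0.22. On day 1, 4 of 8 were positive with a median of -0.00. The 2 that rose against 54 µg on day 28 were Neu1, the lysosomal sialidase, and Hexa, the alpha subunit of beta-hexosaminidase A.

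Neu1 measured -0.19, -0.24, 0.07 and -0.28 at 162 µg on day 28, against -0.78, -1.15, -0.83 and -0.76 at 54 µg, and it rose by 0.72 (limma adjusted p 0.0107). The controls of that day, at -0.75, -0.56 and -0.57, lay below the 162 µg mice as well, and that change of 0.47 had an adjusted p of 0.44. Hexa measured 0.93, 1.20, 0.83 and 0.91 at 162 µg, 0.60, 0.30, 0.43 and 0.65 at 54 µg, and 0.64, 0.64 and 0.66 in controls. Its change was 0.47 against 54 µg (adjusted p 0.0245) and 0.32 against controls (0.542). In both genes the 162 µg mice lay above all mice of both other groups.

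Gusb, the beta-glucuronidase, had an adjusted p of 0.0727 on day 1 with a change of 0.39, and a change of 0.27 on day 28. Gla, alpha-galactosidase A, had the most negative change of the members on day 1, at -0.40 (limma adjusted p 0.445). Its values were 0.38, 0.38, 0.20 and 0.76 at 162 µg, against 0.92, 1.13, 0.55 and 0.72 in controls, and the groups overlapped. Man2b1, the lysosomal alpha-mannosidase, measured 0.34, 0.52, 0.35 and 0.08 at 162 µg on day 1 and 0.40, 1.12, 0.16 and 0.27 in controls, a change of -0.17 that was 0.09 with median centring. Control replicate 2 lay well above the other 7 mice of that comparison. Gaa, which breaks down glycogen, Glb1, the beta-galactosidase, and Manba, the beta-mannosidase, differed by 0.21, 0.16 and 0.23 at 162 µg on day 28, none past the test, and the second probe of Gaa gave -0.02.

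The proteins of lipid breakdown and cholesterol export had a positive change in 6 of 6 members at 162 µg on both days, and none passed the test. The medians were 0.26 on day 28 and 0.19 on day 1. Psap, whose product prosaposin is cut into activators of sphingolipid hydrolases, had the largest change of the 6 on day 28, at 0.56 (limma adjusted p 0.593). Npc2, the soluble protein that hands cholesterol to the membrane protein Npc1, had the largest on day 1. It measured 1.57, 1.69, 0.65 and 1.65 at 162 µg on day 1, against 0.96, 0.46, 1.15 and 1.05 in controls, a change of 0.48 (adjusted p 0.243). The 162 µg mouse at 0.65 is the one with the muscle array. On day 28 Npc2 measured 1.39, 1.74, 1.5 and 1.37 at 162 µg and 1.24, 1.07 and 1.20 in controls, with no overlap, and its change of 0.33 did not pass the test. Lipa, the acid lipase, Asah1, acid ceramidase, Smpd1, acid sphingomyelinase, and Npc1 differed by 0.30, 0.21, 0.14 and 0.14 on day 28. The second probe of Asah1 gave 0.07.

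The membrane proteins gave small differences. Lamp1, one of the most abundant glycoproteins of the lysosomal membrane, measured 1.69, 1.88, 1.71 and 1.81 at 162 µg on day 28 and 1.5, 1.68 and 1.57 in controls. All 4 treated mice were above the 3 controls, but the change was 0.19 (SE 0.13). On day 1 it measured 1.42, 1.55, 1.20 and 1.52 at 162 µg and 1.42, 1.40, 1.47 and 1.56 in controls, with a change of -0.04 that was 0.28 with median centring. Lamp2, its relative with a part in autophagy, differed by 0.31 on day 1, while its second probe gave -0.10. Laptm5, a membrane protein of blood cells, differed by 0.35 on day 28 and 0.25 on day 1. Mcoln1, the cation channel TRPML1, measured 0.09, -0.07, 0.07 and 0.22 at 162 µg on day 28, against 0.07, 0.14 and 0.17 in controls. Its change of -0.05 was among the 3 most negative of the members at that time, was 0.09 with median centring, and the groups overlapped.

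The proton pump subunits had medians of 0.12 on day 28 and 0.18 on day 1, with none past the test. The 2 subunits of the ATP-splitting part, Atp6v1a and Atp6v1b2, differed by 0.21 and 0.17 on day 28 and by 0.15 and 0.21 on day 1. Atp6v0d1, of the membrane part, differed by 0.08 and 0.22 on the same days. The accessory subunit Atp6ap1 had the most negative change of all members on day 28, at -0.15 (SE 0.30). It measured -0.34, 0.06, 0.09 and -0.69 at 162 µg and -0.01, -0.18 and -0.02 in controls. The treated mice lay on both sides of the controls, and with median centring the change was 0.01.

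Tfeb, the regulator of the set, did not differ at 162 µg beyond its error on either day. It measured 0.43, 0.72, 0.06 and 0.76 at 162 µg on day 28, against 0.60, 0.63 and 0.32 in controls, a change of -0.03 (SE 0.27, 95% interval -0.57 to 0.52). On day 1 it measured 0.67, 0.73, 1.22 and 0.16 at 162 µg and 0.86, 0.80, 0.37 and 0.84 in controls, a change of -0.02 (SE 0.25, interval -0.53 to 0.48). For Tfeb, changes within these intervals remained compatible with the values. With each array centred on its median both values turned positive, at 0.08 and 0.10.

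**Figure D3:**
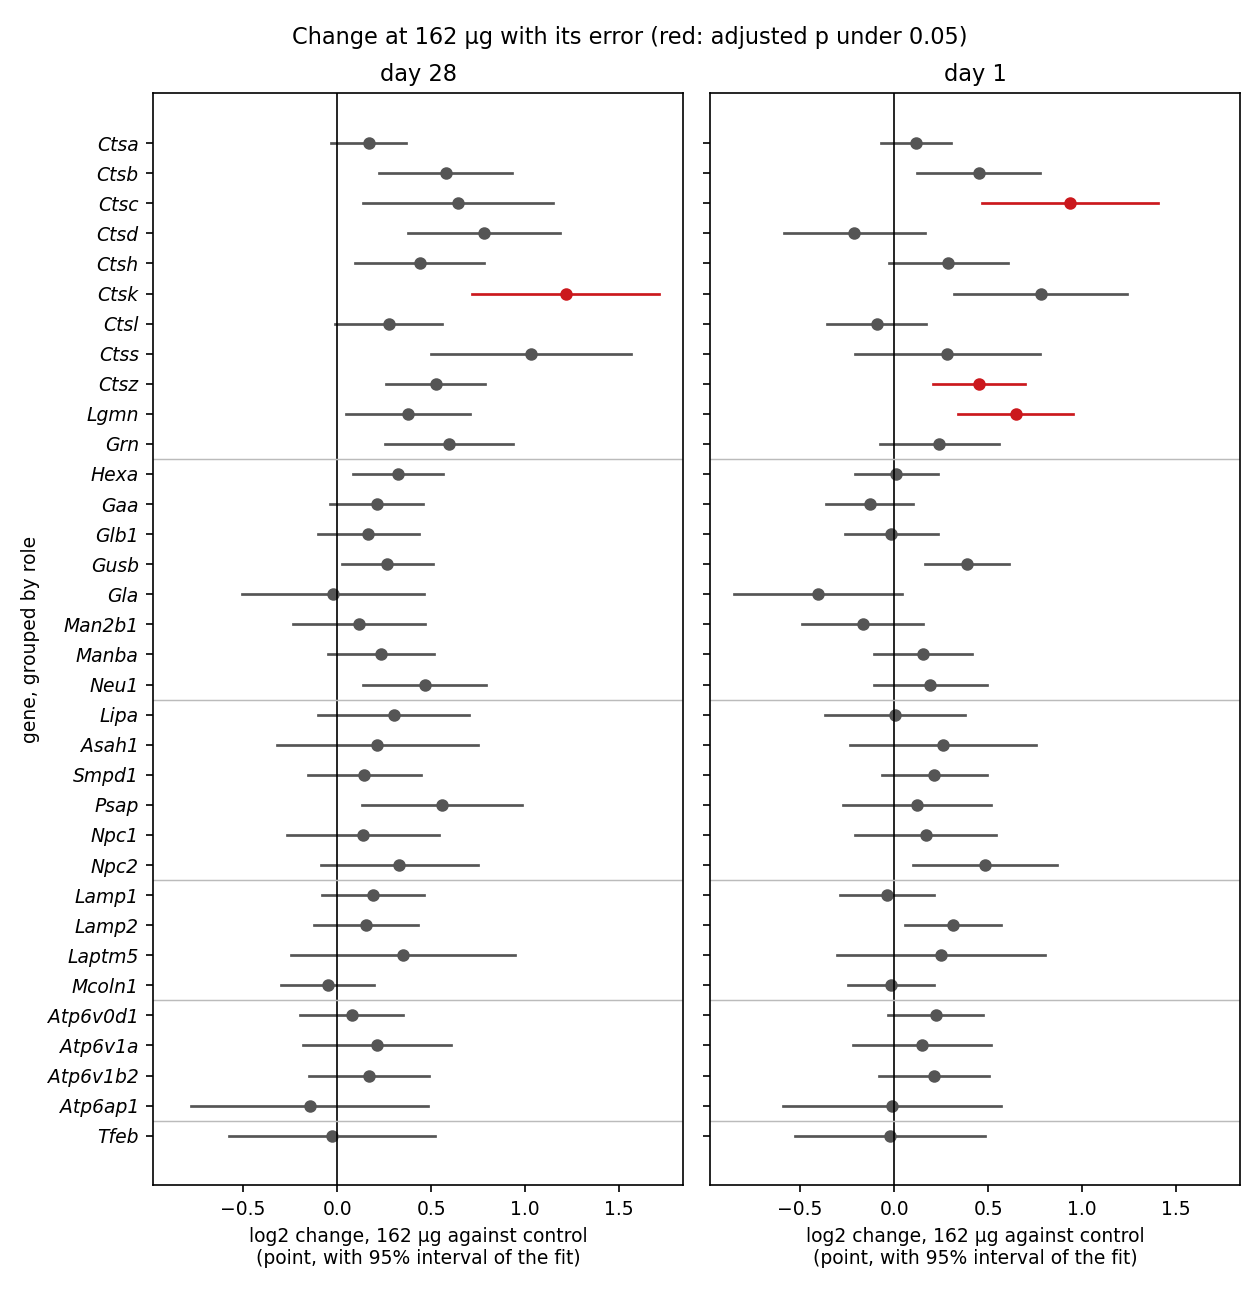
Fitted log2 change of each lysosome gene at 162 µg against control with its 95% interval, day 28 left and day 1 right, genes grouped by role from proteases (top) to Tfeb (bottom). Red points have an adjusted p under 0.05. On day 28 the largest changes are those of Ctsk (1.21), Ctss (1.03) and Ctsd (0.78), and on day 1 those of Ctsc (0.93), Ctsk (0.78) and Lgmn (0.65).

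At the lower doses none of the 34 members passed the limma test. At 54 µg on day 28 the median change was -0.12 with 9 of 34 positive, and 0% of all genes passed. No member had an unadjusted p under 0.05, against 6.15% of all genes. At 18 µg on day 28 the median was -0.08 with 10 positive, and 0% of all genes passed. Unadjusted, 2 members were lower at p under 0.05, against 4.33% of all genes. At 54 µg on day 1 the median was 0.18 with 31 positive, and 0.0516% of all genes passed. There, 7 members were higher at an unadjusted p under 0.05, against 7.64% of all genes in either direction. At 18 µg on day 1 the median was 0.11 with 29 positive, and 0% of all genes passed. A single member, 1 of 34, was higher at an unadjusted p under 0.05, against 4.08% of all genes. That median was 0.0654 without muscle arrays, from 1 control mouse, and 0.0607 with the muscle and squamous covariates. Most members were thus below the controls at both lower doses on day 28 and above them on day 1. Without muscle arrays the median at 54 µg on day 28 was 0.07, from 1 mouse at that dose. The day 1 comparisons share the 4 controls with muscle arrays.

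The other contrasts of the design gave no calls among the members either. For 162 µg against 54 µg on day 1 the median change was -0.06, and 0.0043% of all genes passed. Here 2 members were higher at an unadjusted p under 0.05, against 4.69% of all genes. For day 28 controls against day 1 controls the median was 0.14, and 0.02 without muscle arrays, and 0% of all genes passed. There, 1 member had an unadjusted p under 0.05, against 4.98% of all genes. The difference between the day 28 and the day 1 change had a median of -0.23 at 54 µg, where 9 members were lower at an unadjusted p under 0.05, against 10.2% of all genes. At 18 µg it was -0.21, with 3 members lower, against 6.7% of all genes. For both, 0% of all genes passed.

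The members were also summarised by mouse. The median over the 34 members of a mouse's difference from the control mean of its day was 0.25, 0.33, 0.27 and 0.25 in the 162 µg mice of day 28. In the 162 µg mice of day 1 it was 0.22, 0.27, 0.02 and 0.25, where 0.02 belongs to the mouse with the muscle array. At 54 µg on day 28 the 3 mice with muscle arrays were at -0.03, -0.25 and -0.21, and the mouse without was at 0.07. At 18 µg on day 28 the mouse with a muscle array was at -0.25 and the other 3 were at -0.03, -0.05 and -0.10. On day 1 the mice with a muscle array were at 0.18 at 54 µg and -0.01 at 18 µg, and those without were at 0.13 and 0.26 at 54 µg and at 0.24 and 0.14 at 18 µg. The mouse with a muscle array was thus the lowest of its group at 18 µg on both days and at 162 µg on day 1, but not at 54 µg on day 1. All controls lay between -0.07 and 0.07. Day 1 control replicate 1 was hybridised on 2 arrays, with the muscle list at 7.11 on the first and 14.29 on the second. Its members differed by a median of -0.30 (second minus first). Repeated mice without a muscle array differed by -0.12 (18 µg), 0.20 (54 µg) and -0.06 (162 µg) on day 1. On day 28 they differed by 0.02 (control) and 0.06 (162 µg). The repeated 54 µg mouse of day 28, with the muscle list at 10.27 and then 14.31, differed by -0.15. A link with muscle transcripts was not tested.

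**Figure D4:**
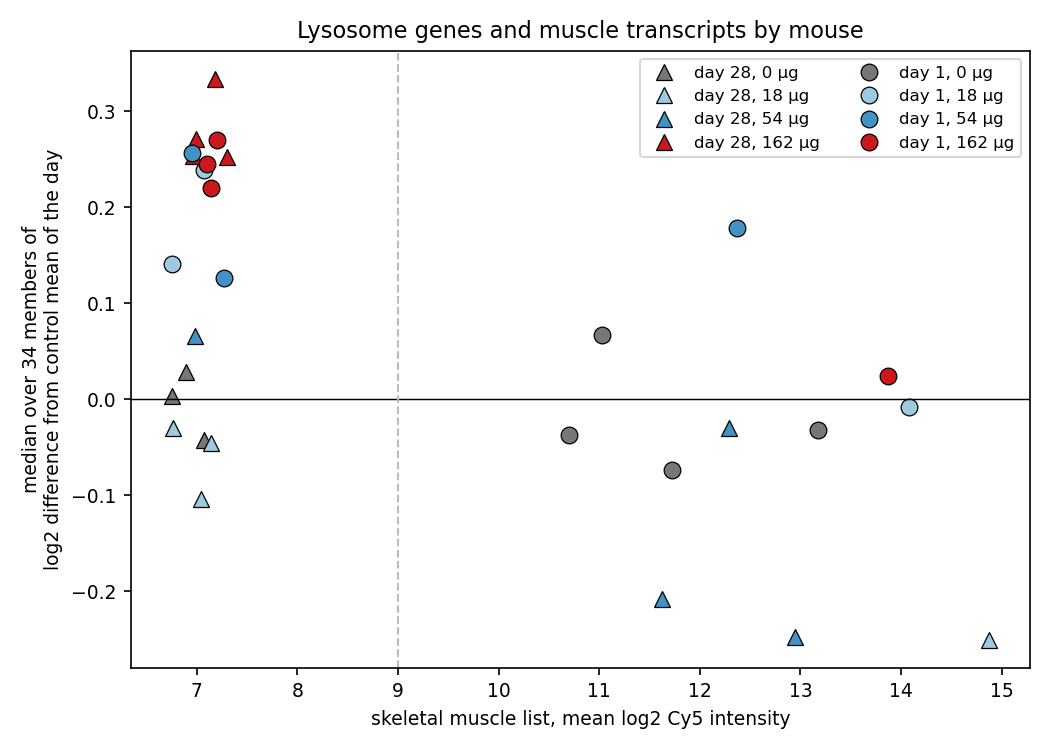
Median over the 34 lysosome genes of each mouse's log2 difference from the control mean of its day (vertical axis) against the mean log2 Cy5 intensity of the skeletal muscle list (horizontal axis, dashed line at 9). Triangles are day 28 mice, circles day 1 mice, and colours give the dose. The 4 day 28 mice at 162 µg lie at 0.25 to 0.33 left of the line, and all 4 day 1 controls lie right of it.

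Without muscle arrays the changes at 162 µg on day 28 were the same, since neither group held any, but the spread was estimated from the remaining 24 arrays. Then 7 members passed the limma test: Ctsk (adjusted p 0.000267), Ctss (0.00239), Ctsb (0.0245), Ctsd (0.0314), Grn (0.0374), Ctsc (0.0426) and Ctsz (0.047). In that fit 0.933% of all genes rose, against 0.623% with all arrays. All 7 are proteases or progranulin, as are 11 of the 34 members. On day 1, where a single control mouse remained, the members that passed were Ctsb at 0.75, Ctsc at 0.92 and Ctsk at 0.83, while 1.72% of all genes rose. Lgmn was then at 0.53 and Ctsz at 0.51, and neither passed (adjusted p 0.27 and 0.164).

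Most monocyte and macrophage markers were higher at 162 µg on day 28, as were most members. Of 15 monocyte and macrophage markers tested, 14 were positive at 162 µg with a median change of 0.50, and 2 rose: Trem2, a lipid receptor of macrophages, by 1.92 (limma adjusted p 0.00273) and Cd68, a lysosomal membrane protein used as a macrophage marker, by 0.80 (0.0344). The mean level of the list was 2.16 to 2.61 in the 162 µg mice, 1.52 to 2.01 in the 54 µg mice and 1.62 to 1.93 in the controls, so that the 162 µg mice lay above the others. The 12 alveolar macrophage markers were at 3.68 to 4.31 at 162 µg and 3.63 to 3.97 in controls. Of these, 6 of 12 were positive (median change 0.09) and none was called. The 9 neutrophil markers were at 1.93 to 3.14 and 1.65 to 2.59 in the same groups, with 9 of 9 positive (median change 0.26) and none called. Among the 9 alveolar type II markers, 7 were positive (median change 0.12) and none was called. The part of cell numbers in the changes of the members was not tested.

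On day 1 each of the monocyte and macrophage, alveolar macrophage and neutrophil lists overlapped the controls at 162 µg. The monocyte and macrophage list was at 1.91 to 1.99 at 162 µg, within the control range of 1.52 to 2.24. Of the 12 alveolar macrophage markers, Itgax rose by 0.68 while Fabp1 fell by 1.77 and Ear2 fell by 0.98, and the list was at 3.25 to 3.67 at 162 µg against 3.49 to 3.86 in controls. Of the 9 neutrophil markers, Mmp8, a granule collagenase, rose by 1.01, and the list was at 2.32 to 2.86 at 162 µg and 1.75 to 2.71 in controls. The alveolar type II list was at 5.14 to 6.17 in all mice.

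Over the 17 mice without a muscle array in groups of at least 2 such mice, deviations from group means were set against those of the marker lists, as a description chosen after the muscle arrays were seen. With the monocyte and macrophage list, 27 of 34 members had a positive r, with a median of 0.18, and the highest were Ctsz at 0.82, Ctss at 0.77 and Ctsd at 0.70. Ctsk was at 0.61 and Grn at 0.64, and the lowest were Atp6v1a at -0.59, Lamp2 at -0.35 and Ctsl at -0.34. No share of positive r over all genes was computed. Other lists gave similar medians: 0.17 with the alveolar macrophage list, where 21 members were positive, and 0.14 with the alveolar type II list, where 26 were positive and Lgmn was the highest at 0.75. With the neutrophil list the median was -0.09. The points of a mouse share an array and its normalisation, and the markers include Cd68, itself a lysosomal protein.

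Lysosomal genes outside the 34 were read from lists of 101 further genes, of which 96 were tested. At 162 µg on day 28, 68 of 96 were positive with a median of 0.11, and 2 rose: Gpnmb, a glycoprotein of phagocyte lysosomes and melanosomes, by 1.89 (3.71-fold, limma adjusted p 0.000804), and Cd68. On day 1, 62 of 96 were positive with a median of 0.07, and 2 rose. These were Scarb2, the receptor that carries beta-glucocerebrosidase to lysosomes, by 0.58 (adjusted p 0.0217), and Gnptab, which adds the mannose 6-phosphate tag that sorts hydrolases to lysosomes, by 0.58 (0.0238). Against 54 µg on day 28, the genes that rose included Atp6v0d2 by 1.26 and Tcirg1 by 0.79, both proton pump subunits found in macrophages and osteoclasts, the transporter Slc15a3 by 1.00 and Cd68 by 0.80. None of the 96 fell in these 3 comparisons.

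The 34 further hydrolases had medians of 0.10 on day 28 and 0.01 on day 1 at 162 µg, with none called. The 16 other pump subunits had medians of 0.10 and 0.13, with none called. Among 21 autophagy genes, Gabarapl1, a relative of LC3, fell by 0.56 on day 1 (limma adjusted p 0.0447), and none was called on day 28. Of 12 inhibitors of lysosomal proteases tested, Cstb, the cytosolic inhibitor of cysteine cathepsins, rose by 0.68 on day 1 (adjusted p 0.00528), and none was called on day 28.

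The changes can be set beside the promoter windows printed above. Ctsd, among the 3 largest at 162 µg on day 28, and Lgmn, among the 3 largest on day 1, hold the hexamer. Lgmn holds it in 1 of its 2 windows, and Ctsk, Ctss and Ctsc do not hold it. At 162 µg on day 28 the median change was 0.19 in the 11 members with CACGTG and 0.33 in the 18 without. On day 1 the medians were -0.01 and 0.23, and for 162 µg against 54 µg on day 28 they were 0.22 and 0.44. Of the 9 members that passed a test in any comparison, Lgmn alone had the hexamer, and Ctsh had no window. These are descriptions of the windows and the changes, with no test of their difference.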

How the data were processed

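Lung RNA of 29 mice was measured on 36 Agilent 2-colour arrays (7 mice on 2 arrays) on 5 slides. Per the file headers, the authors' scans were read with Agilent Feature Extraction 11.0.1.1, and the deposited files give Cy5 (lung) and Cy3 (reference) intensity, flags and a log10 ratio per spot. The deposited value table of log2 ratios, whose scale and centring the sources used here do not state, correlated with the computed ratios at r of 0.986 to 0.997 per array. From the median intensities (the plan had assumed means) the background was corrected by normexp with an offset of 50, dyes were balanced by loess within each array, and arrays of a mouse were averaged. Control spots and outlier flags were left out. Between 48.6% and 62.2% of probes were above background per array. A gene was tested when its probe was above background on all arrays of 3 or more mice in a group. All 8 groups entered 1 limma 3.58.1 fit (R 4.3.3) with Benjamini-Hochberg adjustment over 23256 genes and a threshold of 0.05. The fit was tested on simulated data. Coordinates of promoter windows are those of RefSeq's GRCm38.p6 table. Genes named are all members, plus up to 5 called genes per further list. One called gene of these lists is not reported here. Members and lists were chosen with earlier results of these data known. Alternatives changed the background correction, scaling, filter, arrays used, blocks and covariates, or left out 1 mouse.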

Additional observations from a re-analysis of the deposited data

Results flagged for a closer look

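In 7 cases a single mouse lay far from the other 3 of its group in a member described above, with a gap past Dixon's limit, which chance passes in about 1 in 20 groups; 85 groups of 4 mice, over 17 members, were looked at. All values are log2 ratios of lung to reference.

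In the 162 µg group of day 1, replicate 3, the mouse with a muscle array, stood apart in 3 genes. It had -0.44 for Ctsz, where the other 3 mice were at -0.08 to -0.01. For Npc2 it had 0.65, with the others at 1.57 to 1.69. For Ctsd it had 1.31, above the others at 0.79 to 0.85.

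In the day 1 controls, replicate 3, which also has a muscle array, had -0.31 for Neu1 where the others were at -1.06 to -0.94, and 0.37 for Tfeb where the others were at 0.80 to 0.86.

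In the 54 µg group of day 28, replicate 2 had -1.15 for Neu1, below the others at -0.83 to -0.76, and it too has a muscle array. In the 18 µg group of day 28, replicate 2, which has none, had 0.78 for Man2b1, above the others at 0.43 to 0.46.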

How the results depend on the processing

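No paired analysis was possible because the replicate numbers were given in accession order and pair no mice. The precision is limited by 3 to 4 mice a group. Over the alternatives other than leaving out 1 mouse at a time, the median change of the members relative to that of all genes stayed positive for 162 µg against control, at 0.22 to 0.29 on day 28 and 0.05 to 0.29 on day 1, and for 162 µg against 54 µg on day 28, at 0.17 to 0.45. With 1 mouse left out at a time the members' own median was 0.21 to 0.31, 0.12 to 0.24 and 0.32 to 0.44 in these comparisons.

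Median centring of each array in place of loess moved the median of all genes by 0.15 for 162 µg against 54 µg on day 28, -0.13 for the same doses on day 1, 0.23 for 54 µg on day 1, 0.11 for 18 µg on day 1 and 0.12 between the controls. The members' median was then 0.61 for 162 µg against 54 µg on day 28, 0.37 at 162 µg on day 28, 0.39 at 162 µg on day 1, 0.55 at 54 µg and 0.27 at 18 µg on day 1, and 0.33 between the controls. Calls numbered 2 for 162 µg against 54 µg on day 28 and 1 at 162 µg on day 1, and the share of all genes called with median centring is not given here. The sign turned for Atp6ap1 (0.00587), Mcoln1 (0.0855) and Tfeb (0.0840) on day 28, and for Ctsd (0.101), Lamp1 (0.28), Man2b1 (0.0919) and Tfeb (0.10) on day 1. Lamp1 on day 1 also turned with the deposited table (0.00449), the scanner's log ratio (0.00136) and with the mouse whose labels conflict counted as day 1 (0.0144).

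With muscle and squamous genes as covariates, calls were 5 at 162 µg on day 28, while 0.881% of all genes rose. For 162 µg against 54 µg on day 28 they were 0, while 0.206% of all genes rose. The medians were 0.0585 at 162 µg on day 1, 0.24 for 162 µg against 54 µg on day 28, 0.0310 at 54 µg on day 28 and -0.0280 between the controls, and Tfeb on day 1 was 0.27. Without muscle arrays, calls were 7 at 162 µg on day 28 and 1 against 54 µg, and the medians were 0.17 against 54 µg, 0.0666 at 54 µg on day 28 and 0.0214 between the controls.

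Array weights gave 8 calls at 162 µg on each day, 15 and 3 for 162 µg against 54 µg on days 28 and 1, 1 at 54 µg on day 28, and 2 and 3 for the difference between days at 162 µg and 54 µg. All arrays with the mouse as a random block gave 5 at 162 µg on day 28 and 6 on day 1, and 2 and 6 with the slide as a block. The fitted correlation between arrays of a mouse was -0.03, and 0.05 with the slide. Repeat arrays of a mouse thus entered these fits almost as separate mice. Only the groups compared gave 3 at 162 µg on day 28, and 0 both on day 1 and against 54 µg. The deposited table gave 2 and the scanner's log ratio 0 at 162 µg on day 28, and the conflicting mouse in day 1 gave 4 against 54 µg. The cause of these differences was not tested. The share of all genes called in each of these fits is not given here, so the counts stand without that comparison.

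Leaving out 1 mouse at a time gave 0 to 2 calls at 162 µg on day 28 and 0 to 6 on day 1. Against 54 µg on day 28 it gave 2 to 9. The share of all genes called in each of these fits is not given here. The change of Atp6ap1 on day 28 was -0.25 to 0.00962, that of Lamp1 on day 1 -0.0826 to 0.0373, that of Man2b1 on day 1 -0.28 to 0.0426, and that of Tfeb -0.12 to 0.12 on day 28 and -0.20 to 0.16 on day 1.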
